A study of Homo sapiens with 16 samples.

Results

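The genes described here encode enzymes that break down or remodel the extracellular matrix, together with the receptor and inhibitors that place and restrain them. There were 10 members, taken by gene symbol from the 58243 genes of the deposited count table: the plasminogen activators PLAU and PLAT, the urokinase receptor PLAUR, the matrix metalloproteinases MMP1, MMP2, MMP3 and MMP14, and the tissue inhibitors of metalloproteinases TIMP1, TIMP2 and TIMP3. Of these, 8 passed the filter on low counts and were among 16647 genes tested. MMP1 and MMP3 averaged under 1 CPM (counts per 1000000 counts of the TMM-scaled library), so they were hardly measured.

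Urokinase, the product of PLAU, and tissue plasminogen activator, the product of PLAT, cut plasminogen into plasmin, a broad protease that digests fibrin and matrix proteins and can activate some metalloproteinases. PLAUR holds urokinase at the cell surface. Metalloproteinases are zinc enzymes made as inactive precursors. MMP14 sits in the plasma membrane and activates the MMP2 precursor in a complex that also contains TIMP2, while an excess of TIMP2 blocks the enzyme. In glioblastoma, an invasive brain tumour, these proteases are known for their part in the spread of cells through brain tissue.

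The RNA was that of U-251 MG cells, an established line from a human glioblastoma, grown in DMEM with high glucose and 10% FBS and lifted with trypsin before extraction. From 24 h after seeding, cells received 0.06 µM simvastatin with 0.60 µM irinotecan (the combination), 0.60 µM irinotecan alone, 0.06 µM simvastatin alone, or the vehicle DMSO, for 48 h. Simvastatin is a statin that blocks cholesterol synthesis, and irinotecan is converted in cells to an inhibitor of topoisomerase I. The study asked which pathways and genes these drugs affect alone and together. Each group had 4 libraries, and the library without a number in its title is called replicate 4. The labels do not say that these were separate cultures, so the p-values measure the spread between these libraries, which may be technical. In bulk RNA, fewer cells of a type and less RNA per cell cannot be told apart.

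Library totals ran from 24159673 to 32318888 counts. The first principal component held 25.9% of the variance and separated the 8 libraries with irinotecan from the 8 without it. All 7 glial and glioblastoma markers were above 1 CPM in every group, with CD44 the highest. Their summed level was 5075 to 5224 CPM in combination, 5111 to 5277 CPM in irinotecan, 6652 to 6762 CPM in simvastatin and 6889 to 7136 CPM in DMSO libraries. CD44, VIM and NES made up most of these sums, with medians of 2723, 1706 and 971 CPM over all libraries. S100B (4.82 CPM) and CHI3L1 (3.08 CPM) added little. Among markers of other cell types, TYROBP (macrophages and microglia) was at 0 in every library, but others were detected. From the same list, CSF1R was at 0.688 to 2.12 CPM and CD14 at 0.158 to 0.946 CPM. Of the 5 neuron markers, 3 averaged over 1 CPM in every group, with GAD1 at 42.9 to 65.5 CPM and SYT1 at 13.3 to 22.4 CPM. Sums for fibroblast and endothelial markers are given below.

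RefSeq promoter windows on GRCh38.p14, from 250 bases before to 50 bases after a transcript start, were at hand for PLAU, PLAUR, MMP14, TIMP1 and TIMP3, with 2 windows for PLAU and 1 for each of the others. Stretches are shown for PLAU and PLAUR, whose RNAs moved alike, and for TIMP3, whose log2 fold change of 0.93 with the combination against DMSO was the largest of the 8 tested members. The PLAUR stretch lies at chr19:43670338-43670367 on the minus strand, 198 to 169 bases before the start, and the capitals mark an AP-1 motif. The PLAU stretch lies at chr10:73911062-73911091 on the plus strand, 70 to 41 bases before the start, and the capitals mark SP1 motifs. The PLAUR and PLAU stretches lie inside the gene spans given below, so these RefSeq starts are not the outermost annotated ones. The TIMP3 stretch lies at chr22:32801455-32801700 on the plus strand, 250 to 5 bases before the start, and the capitals again mark SP1 motifs on either strand.
PLAUR: atcacaactccaTGAGTCAgggccgagcca
PLAU: agccGGGCGGgagagggagGGGCGGcgccg
TIMP3: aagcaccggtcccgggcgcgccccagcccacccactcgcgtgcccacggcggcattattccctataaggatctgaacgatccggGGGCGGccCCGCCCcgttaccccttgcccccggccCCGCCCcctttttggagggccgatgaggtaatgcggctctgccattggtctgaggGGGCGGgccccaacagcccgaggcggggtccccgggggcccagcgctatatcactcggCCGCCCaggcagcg
Motifs were searched on both strands of 35116 windows of 300 bases. The AP-1 motif, spelled TGANTCA, was found in 7.71% of all windows. For ETS factors the letters AGGAAG were found in 33.6% of windows, and for SP1 the letters GGGCGG in 44.9% of windows. A TATA box, spelled TATAAA, was found in 11.5%. The PLAUR window held the AP-1 match at 186 bases before the start and an ETS match at 15 bases. The more upstream PLAU window held no match, and the other held 1 ETS match and 3 SP1 matches. TIMP3 had 5 SP1 matches, MMP14 had 1, and TIMP1 had 2 with 1 ETS match. These are matches of letters in a window, not sites of binding.

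In the plasminogen activation system, PLAU and PLAUR fell with irinotecan and rose with simvastatin, both against DMSO. PLAT was called lower with irinotecan by a smaller estimate, 0.10 on the log2 scale, a call lost under several alternatives. Its rise with simvastatin, also 0.10, missed the threshold by edgeR and passed it by DESeq2. PLAU (ENSG00000122861, GRCh38 chromosome 10, 73909177 to 73917497, plus strand) is the urokinase gene. Its level was 227, 217, 227 and 234 CPM in combination libraries, 181, 193, 174 and 172 CPM in irinotecan libraries, 287, 279.8, 273 and 305 CPM in simvastatin libraries, and 253, 232, 254 and 248 CPM in DMSO libraries. All simvastatin libraries lay above all DMSO libraries, and all irinotecan libraries lay below every library of the other groups. The combination overlapped DMSO at its upper end. PLAU fell by 0.46 ± 0.04 on the log2 scale with irinotecan against DMSO, which is 1.37-fold lower (standard error here and below; edgeR quasi-likelihood test, Benjamini-Hochberg adjusted p = 6.83e-10). With simvastatin against DMSO it rose by 0.21 ± 0.04 (edgeR adjusted p = 0.000776). The combination was lower than DMSO by a log2 fold change of -0.12 ± 0.04 (edgeR adjusted p = 0.0222), higher than irinotecan by 0.33 ± 0.04 (edgeR adjusted p = 1.64e-06) and lower than simvastatin by -0.34 ± 0.04 (edgeR adjusted p = 1.96e-07). The call against DMSO was lost without combination replicate 2 (edgeR adjusted p = 0.0771), DMSO replicate 1 (adjusted p = 0.063) or DMSO replicate 3 (adjusted p = 0.0581), and with library sizes alone as scaling (adjusted p = 0.202). PLAU shares 916 of its 2950 exon bases with C10orf55 on the opposite strand. Since the strand setting of the counting is not given, it is not known whether reads over the shared bases were told apart.

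PLAUR (ENSG00000011422, chromosome 19, 43646095 to 43670547, minus strand), the receptor that binds urokinase at the membrane, followed the same order of groups. It had 93.5, 87.3, 89.5 and 93.4 CPM in combination libraries, 78.3, 80.9, 75.2 and 72.6 CPM in irinotecan libraries, 114, 112, 106 and 112 CPM in simvastatin libraries, and 102, 89.5, 97.5 and 104 CPM in DMSO libraries. Simvastatin libraries were again the highest and irinotecan libraries the lowest, and neither overlapped DMSO. PLAUR fell by 0.35 ± 0.05 on the log2 scale with irinotecan against DMSO (edgeR adjusted p = 4.36e-07). It rose by 0.18 ± 0.04 with simvastatin against DMSO (edgeR adjusted p = 0.0122), a call lost without simvastatin replicate 1 (adjusted p = 0.0551) or DMSO replicate 2 (adjusted p = 0.077). The combination was higher than irinotecan by 0.24 ± 0.05 (edgeR adjusted p = 0.000614) and lower than simvastatin, with a log2 fold change of -0.29 ± 0.05 (edgeR adjusted p = 1.13e-05). The combination against DMSO missed the threshold with a log2 fold change of -0.11 (95% interval -0.20 to -0.02, edgeR adjusted p = 0.0642), and passed it without DMSO replicate 2 (adjusted p = 0.0112) and with only the groups compared in the model (adjusted p = 0.0341).

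**Figure D1:**
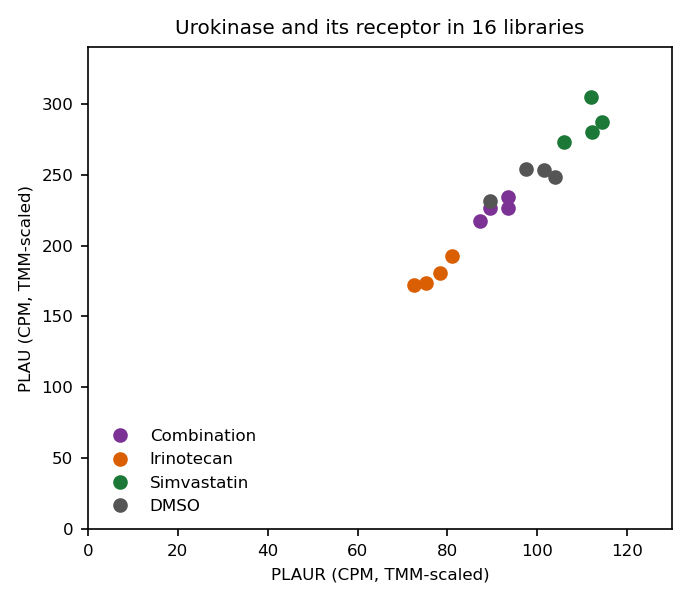
Level of PLAU (y axis) against that of PLAUR (x axis), both in CPM, with 1 point for each of the 16 libraries, coloured by group. The points run along a line, with the irinotecan libraries at the low end, the combination and DMSO libraries in the middle and the simvastatin libraries at the high end.

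Here and below, likeness was ranked among tested genes, leaving out those with clone-like or LINC names. The 2 genes whose log2 CPM most resembled PLAU over the 16 libraries were PLAUR (Pearson r = 0.981) and PGRMC2 (r = 0.976). For PLAUR they were PLAU and the actin-bundling gene FSCN1 (r = 0.977). These values describe points that fall into the 4 treatment groups and share their libraries and scaling. The ratio of PLAU to PLAUR per kilobase of exon averaged 3.76 ± 0.0713 in combination, 3.54 ± 0.0602 in irinotecan, 3.89 ± 0.158 in simvastatin and 3.80 ± 0.155 in DMSO libraries (SD, n = 4 each). The size of this ratio depends on the merged lengths of all annotated exons, which are the same for every group.

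PLAT (ENSG00000104368, chromosome 8, 42175233 to 42207724, minus strand), which encodes tissue plasminogen activator, had 389, 376, 371 and 371 CPM in combination libraries, 356, 350.1, 348 and 355 CPM in irinotecan libraries, 407, 399.7, 403 and 413 CPM in simvastatin libraries, and 383, 355, 389 and 386 CPM in DMSO libraries. DMSO replicate 2 lay among the irinotecan libraries, and simvastatin libraries lay above the other groups. PLAT fell by 0.10 ± 0.03 on the log2 scale with irinotecan against DMSO (edgeR adjusted p = 0.0241). That call was lost without irinotecan replicate 3 (adjusted p = 0.0507), DMSO replicate 1 (adjusted p = 0.0557), DMSO replicate 3 (adjusted p = 0.0826) or DMSO replicate 4 (adjusted p = 0.0715), with library sizes alone (log2 fold change -0.03, adjusted p = 0.583), with no filter on low counts (0.149), with only the groups compared in the model (0.0619) and with the 12 numbered libraries alone (0.114). The combination was below simvastatin by a log2 fold change of -0.11 ± 0.03 (edgeR adjusted p = 0.0176), a call lost without simvastatin replicate 4 (adjusted p = 0.052), with library sizes alone (log2 fold change -0.05, adjusted p = 0.209) and with the 12 numbered libraries alone (adjusted p = 0.118). The other PLAT differences missed the threshold by edgeR: 0.10 with simvastatin against DMSO (95% interval 0.03 to 0.17, adjusted p = 0.0679), -0.00 with the combination against DMSO (-0.07 to 0.06, adjusted p = 0.935) and 0.10 with the combination against irinotecan (0.03 to 0.16, adjusted p = 0.0854). The difference between combination and irinotecan passed without DMSO replicate 2 (adjusted p = 0.0499). DESeq2 called PLAT higher with simvastatin against DMSO (adjusted p = 0.0206) and with the combination against irinotecan (adjusted p = 0.0245). Simvastatin against DMSO also passed with library sizes alone (edgeR adjusted p = 0.0359).

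**Figure D2:**
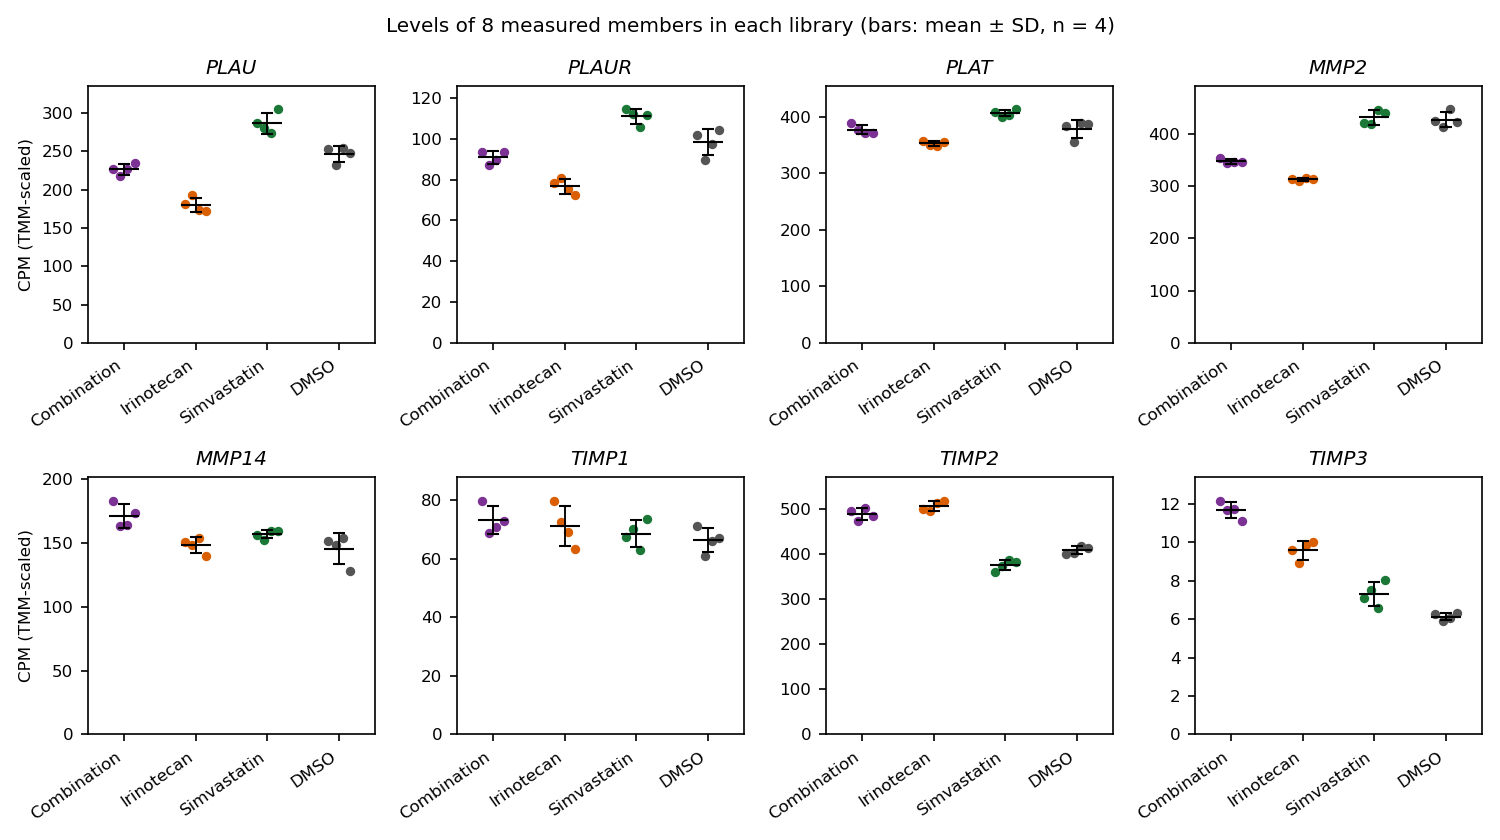
Level in CPM (y axis, from 0) of the 8 measured members in each library of the combination, irinotecan, simvastatin and DMSO groups (x axis). Points are libraries and bars show the mean and SD of 4. PLAU and PLAUR are lowest with irinotecan and highest with simvastatin, MMP2 is low and TIMP2 high in both groups with irinotecan, and TIMP3 is highest with the combination.

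Among the metalloproteinases, MMP2 fell in both groups that received irinotecan, and MMP14 rose with the combination. MMP2 (ENSG00000087245, chromosome 16, 55389700 to 55506691, plus strand) encodes gelatinase A, which degrades denatured collagen and collagen of basement membranes. It had 355, 345, 346 and 346 CPM in combination libraries, 314, 309, 315 and 313 CPM in irinotecan libraries, 420.1, 419.6, 445 and 441 CPM in simvastatin libraries, and 425, 413, 447 and 423 CPM in DMSO libraries. Irinotecan libraries were the lowest and combination libraries the next, both apart from all others, while simvastatin and DMSO libraries overlapped. MMP2 fell by 0.45 ± 0.03 on the log2 scale with irinotecan against DMSO, 1.37-fold lower (edgeR adjusted p = 7.68e-12). With the combination it fell by 0.30 ± 0.03 against DMSO (edgeR adjusted p = 2.99e-08) and by 0.31 ± 0.03 against simvastatin (edgeR adjusted p = 1.51e-08), and it was 0.15 ± 0.03 higher than with irinotecan (edgeR adjusted p = 0.0029). Simvastatin alone gave a log2 fold change of 0.01 (95% interval -0.05 to 0.08, edgeR adjusted p = 0.895). The summed glial and glioblastoma markers given above, mostly CD44, VIM and NES, were likewise lower in the 8 libraries with irinotecan. Their part in this difference was not tested. MMP2 shares 174 exon bases with AC007336.3 on its own strand, so its counts carry some uncertainty. The genes most like MMP2 over the 16 libraries were the fatty acid desaturase gene SCD (Pearson r = 0.989) and the collagen gene COL8A1 (r = 0.988).

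MMP14 (ENSG00000157227, chromosome 14, 22836557 to 22849027, plus strand) encodes the membrane-bound activator of MMP2. Its level was 183, 163, 164 and 174 CPM in combination libraries, 151, 149, 154 and 140.2 CPM in irinotecan libraries, 157, 153, 159.9 and 159 CPM in simvastatin libraries, and 152, 148, 154 and 128 CPM in DMSO libraries. The combination libraries lay above all others, and the single drugs overlapped DMSO. MMP14 rose by 0.23 ± 0.05 on the log2 scale with the combination against DMSO (edgeR adjusted p = 0.000393) and by 0.20 ± 0.05 against irinotecan (edgeR adjusted p = 0.00714). Against simvastatin the combination gave 0.12 (95% interval 0.03 to 0.22, edgeR adjusted p = 0.0577). That comparison passed without combination replicate 2 (adjusted p = 0.0436), combination replicate 3 (adjusted p = 0.0479) or DMSO replicate 4 (adjusted p = 0.0219), with library sizes alone (adjusted p = 0.00683), with just the compared groups in the model (0.021) and with no filter on low counts (0.0492). Irinotecan alone gave 0.03 (-0.07 to 0.13, edgeR adjusted p = 0.715) and simvastatin alone 0.11 (0.01 to 0.21, edgeR adjusted p = 0.21), both against DMSO. YKT6, which acts in vesicle transport, and the surface protein gene CD276 were most like MMP14 (r = 0.907 and 0.906 over 16 libraries).

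MMP1 (ENSG00000196611, chromosome 11, 102789920 to 102798160, minus strand), interstitial collagenase, had 5, 2, 5 and 5 counts in combination libraries, 3, 4, 3 and 0 counts in irinotecan libraries, 4, 2, 0 and 5 counts in simvastatin libraries, and 0, 0, 1 and 0 counts in DMSO libraries. MMP3 (ENSG00000149968, chromosome 11, 102835801 to 102843803, minus strand), stromelysin 1, had 0 to 3 counts in combination and in irinotecan libraries, 0 to 1 in simvastatin libraries and 0 in every DMSO library. A count of 0 allows up to 3 counts, which is 0.0906 to 0.124 CPM in these libraries, for counting error only. Neither gene was tested, and no fold change is given.

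Of the TIMP genes, TIMP2 and TIMP3 rose in both groups with irinotecan against DMSO. No difference in TIMP1 passed the test in the model of all 16 libraries with TMM scaling and the filter on low counts, though some did under other settings. TIMP2 (ENSG00000035862, chromosome 17, 78852977 to 78925387, minus strand), the inhibitor that takes part in MMP2 activation, had 495, 472, 502 and 485 CPM in combination libraries, 501, 495, 513 and 518 CPM in irinotecan libraries, 361, 372, 387 and 383 CPM in simvastatin libraries, and 400.2, 401, 419 and 414 CPM in DMSO libraries. The groups with irinotecan overlapped each other and lay above the rest, and simvastatin libraries lay below DMSO libraries. TIMP2 rose by 0.31 ± 0.03 on the log2 scale with irinotecan against DMSO (edgeR adjusted p = 1.59e-08). With the combination it rose by 0.26 ± 0.03 against DMSO (edgeR adjusted p = 3.96e-07) and by 0.38 ± 0.03 against simvastatin (edgeR adjusted p = 3.74e-10). It fell by 0.12 ± 0.03 with simvastatin against DMSO (edgeR adjusted p = 0.0239). This last call was lost without simvastatin replicate 1 (adjusted p = 0.114), simvastatin replicate 2 (0.0674), DMSO replicate 3 (0.0764) or DMSO replicate 4 (0.0595), with no filter on low counts (0.0698), with only the groups compared in the model (0.0521) and with the 12 numbered libraries alone (0.12). The combination against irinotecan gave -0.05 (95% interval -0.12 to 0.02, edgeR adjusted p = 0.431). TIMP2 shares 367 exon bases with AC022966.1 on the opposite strand and 198 with CEP295NL on its own, so its counts carry some uncertainty. The helicase gene BLM (r = 0.986) and the calcineurin regulator RCAN2 (r = 0.985) were most like TIMP2 over the 16 libraries.

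TIMP3 (ENSG00000100234, chromosome 22, 32801701 to 32863043, plus strand) encodes the inhibitor that binds to matrix and also acts on some ADAM and ADAMTS proteases. It had 12.2, 11.7, 11.8 and 11.1 CPM in combination libraries, 9.59, 8.91, 9.86 and 10.0 CPM in irinotecan libraries, 7.08, 7.51, 6.61 and 8.07 CPM in simvastatin libraries, and 6.27, 5.88, 6.08 and 6.33 CPM in DMSO libraries. No pair of groups overlapped. TIMP3 rose 1.90-fold with the combination against DMSO, by 0.93 ± 0.08 on the log2 scale (edgeR adjusted p = 4.16e-10), and by 0.68 ± 0.08 against simvastatin (edgeR adjusted p = 1.55e-07). With irinotecan it rose 1.56-fold against DMSO, by 0.64 ± 0.08 (edgeR adjusted p = 6.19e-07). The combination was 0.29 ± 0.08 above irinotecan (edgeR adjusted p = 0.0234), a call lost without combination replicate 1 (adjusted p = 0.078), combination replicate 3 (0.0582), irinotecan replicate 1 (0.0592) or irinotecan replicate 2 (0.0995) and with no filter on low counts (0.0814). Simvastatin alone gave 0.25 against DMSO (95% interval 0.07 to 0.43, edgeR adjusted p = 0.0964), which passed without simvastatin replicate 3 (adjusted p = 0.0493). The genes most like TIMP3 over the 16 libraries were the cell cycle inhibitor CDKN1A (r = 0.980) and EHD2 (r = 0.976).

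Summed levels of genes listed as fibroblast and endothelial markers were highest with the combination, as was TIMP3. Unlike TIMP3, the endothelial sums overlapped between combination and irinotecan libraries. The RNA came from a single cell line, so these sums are levels of listed genes and not counts of such cells. The 6 fibroblast markers summed to 43.7 to 47.1 CPM in combination, 34.5 to 39.2 CPM in irinotecan, 26.2 to 31.3 CPM in simvastatin and 25.6 to 28.5 CPM in DMSO libraries. The 5 endothelial markers summed to 6.23 to 6.73 CPM in combination, 5.39 to 6.47 CPM in irinotecan, 4.09 to 4.50 CPM in simvastatin and 3.93 to 4.42 CPM in DMSO libraries. COL1A1 and KDR made up most of these sums, and only COL1A1 and PDGFRB of the fibroblast list averaged over 1 CPM in any group. LUM was at 0 in irinotecan, simvastatin and DMSO libraries. Medians over all libraries were 0 CPM for COL3A1, 0.121 for FAP, 0.0352 for PECAM1 and 0.0791 for CDH5. The part of these markers in the TIMP3 differences was not tested.

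TIMP1 (ENSG00000102265, chromosome X, 47582313 to 47586789, plus strand), a secreted inhibitor of most metalloproteinases, had 79.7, 68.8, 71.0 and 73.0 CPM in combination libraries, 79.7, 72.6, 69.2 and 63.5 CPM in irinotecan libraries, 67.5, 70.1, 62.8 and 73.7 CPM in simvastatin libraries, and 71.0, 61.0, 66.2 and 67.1 CPM in DMSO libraries. All groups overlapped. The log2 fold change against DMSO was 0.14 with the combination (95% interval 0.01 to 0.27, edgeR adjusted p = 0.102), 0.10 with irinotecan (-0.03 to 0.23, adjusted p = 0.263) and 0.05 with simvastatin (-0.08 to 0.18, adjusted p = 0.801). The combination gave 0.04 against irinotecan (-0.09 to 0.17, edgeR adjusted p = 0.821) and 0.09 against simvastatin (-0.04 to 0.22, adjusted p = 0.294). With library sizes alone as scaling, TIMP1 was called higher with the combination (0.20, edgeR adjusted p = 0.0157) and with irinotecan (0.18, edgeR adjusted p = 0.03), both against DMSO. It was also called higher with no filter on low counts, with the combination against DMSO (0.13, edgeR adjusted p = 0.0435). With the replicate number as a block, on the 12 numbered libraries, TIMP1 was called higher with irinotecan (0.16, edgeR adjusted p = 0.00782) and with the combination (0.15, 0.0142), both against DMSO. That fit also called it higher with the combination against simvastatin (0.13, edgeR adjusted p = 0.0307). The ribosomal protein gene RPL12 (r = 0.915) and the clathrin adaptor gene AP2S1 (r = 0.904) were most like TIMP1.

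**Figure D3:**
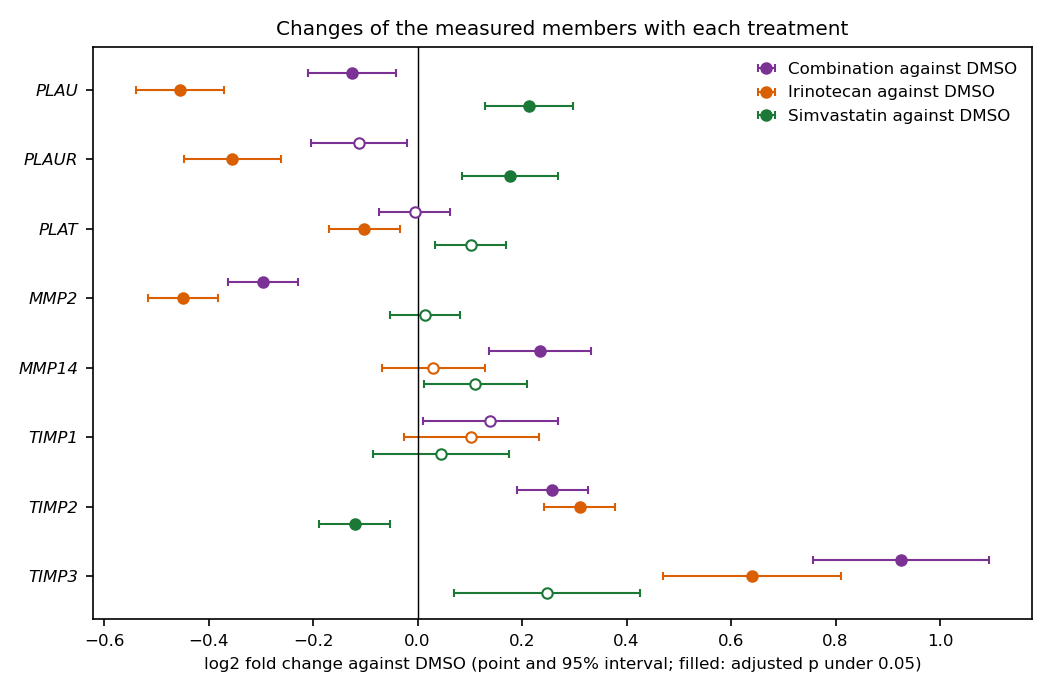
Log2 fold change against DMSO (x axis) of the 8 measured members (y axis) with the combination, irinotecan and simvastatin. Points are edgeR estimates, bars are 95% intervals, and filled points had an adjusted p under 0.05. Irinotecan points lie left of 0 for PLAU, PLAUR, PLAT and MMP2 and right of it for TIMP2 and TIMP3.

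The comparisons with DMSO share the same DMSO libraries. The shares and medians over all genes, here and in the next paragraph, were not matched for level. By mean CPM, TIMP3 stood at percentile 40.1 of the genes tested and the other tested members at 79.1 to 98.3. The members were also chosen with earlier results of these data known, so the shares are no test of the set. With irinotecan, 4 of the 8 tested members were lower (PLAU, PLAUR, PLAT, MMP2), against 11.7% of all genes tested, and 2 were higher (TIMP2, TIMP3), against 12.4%. With the combination, 2 were lower (PLAU, MMP2), against 13.0%, and 3 were higher (MMP14, TIMP2, TIMP3), against 15.1%. With simvastatin, 1 was lower (TIMP2), against 2.11%, and 2 were higher (PLAU, PLAUR), against 3.89%. The median log2 fold change of the 8 was 0.07 with the combination, -0.04 with irinotecan and 0.11 with simvastatin, and over all genes tested it was 0.00, -0.00 and -0.01. The median absolute log2 fold change of the 8 was 0.19 with the combination, 0.33 with irinotecan and 0.12 with simvastatin, against 0.15, 0.13 and 0.09 over all genes.

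Adding simvastatin to irinotecan gave higher levels of 5 members (PLAU, PLAUR, MMP2, MMP14, TIMP3), against 4.45% of all genes called higher in this comparison. None was called lower, against 1.50% of genes, with 0 members at an unadjusted edgeR p under 0.05 in that direction and 0 by DESeq2. The 8 members had a median log2 fold change of 0.18, against -0.00 over all genes. Adding irinotecan to simvastatin gave lower levels of 4 members (PLAU, PLAUR, PLAT, MMP2), against 11.7% of genes, and higher levels of 2 (TIMP2, TIMP3), against 13.9%.

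The interaction, the departure of the combination from the summed log2 fold changes of the single drugs, was called for 0 of 8 members by edgeR and for 0 by DESeq2, against 0.0120% of all genes by edgeR. At an unadjusted p under 0.05 there was 1 member, MMP2. For MMP2 the combination changed by -0.30 and the single drugs summed to -0.44, a departure of 0.14 ± 0.05 (95% interval 0.04 to 0.23). Its edgeR p was 0.00556 before and 0.798 after Benjamini-Hochberg adjustment. For PLAU the combination changed by -0.12 and the sum was -0.24, a departure of 0.12 ± 0.06 (-0.00 to 0.24, edgeR adjusted p = 0.828). TIMP3 changed by 0.93 with the combination, and its single-drug changes summed to 0.89, a departure of 0.04 ± 0.12 (-0.20 to 0.28, edgeR adjusted p = 0.973). MMP14 changed by 0.23 against a sum of 0.14 (departure 0.09 ± 0.07, 95% interval -0.05 to 0.23, edgeR adjusted p = 0.881). The departures of the other members were 0.07 ± 0.06 for PLAUR, -0.00 ± 0.05 for PLAT, -0.01 ± 0.09 for TIMP1 and 0.07 ± 0.05 for TIMP2.

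**Figure D4:**
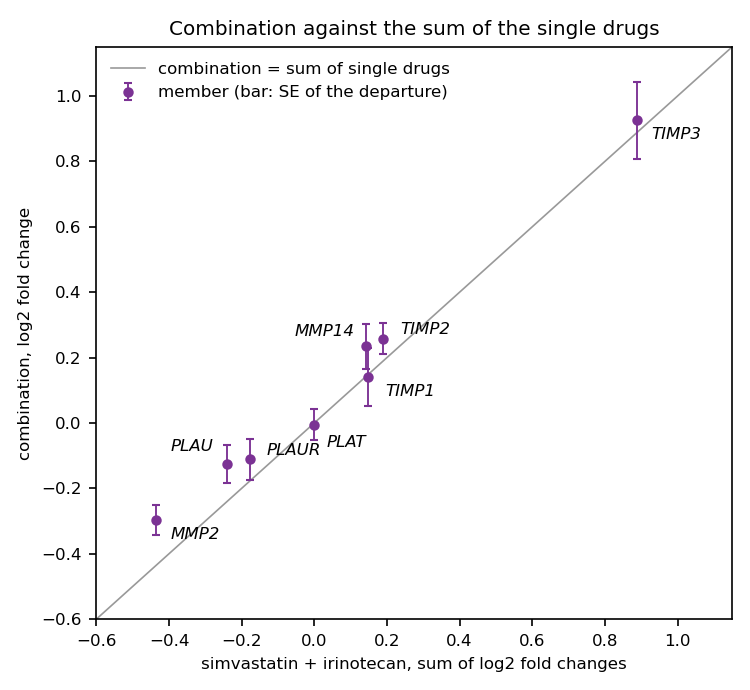
Log2 fold change of the combination against DMSO (y axis) plotted against the sum of the changes with simvastatin alone and irinotecan alone (x axis), 1 point per measured member. Bars are the standard error of the departure, and the grey line marks equality. MMP2 lies 0.14 above the line and TIMP3 0.04 above it.

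Levels per kilobase of exon set members beside each other only roughly. The length used merges all annotated exons, 1541 bases for TIMP1 and 6618 for PLAT, and which transcripts were present was not tested. The order of members therefore depends on the annotation as well as on the RNA. By CPM alone, PLAT (378) stood above PLAU (247) in DMSO libraries. In DMSO libraries MMP2 (86.6 ± 2.87 CPM per kb) and PLAU (83.6 ± 3.52) stood highest and differed by less than their summed SDs, followed by TIMP2 (72.5 ± 1.63), PLAT (57.1 ± 2.39), TIMP1 (43.0 ± 2.69), MMP14 (32.6 ± 2.7), PLAUR (22.0 ± 1.43) and TIMP3 (1.33 ± 0.0438; SD, n = 4 each). In irinotecan libraries the order began with TIMP2 (89.9 ± 1.85 CPM per kb), and MMP2 (63.4 ± 0.505) and PLAU (61.0 ± 3.20) came next, within their SDs of each other. In combination libraries TIMP2 (86.8 ± 2.30 CPM per kb) was again the highest, above PLAU (76.7 ± 2.34) and MMP2 (70.5 ± 0.933). In simvastatin libraries PLAU (97.0 ± 4.58 CPM per kb) stood above MMP2 (87.5 ± 2.75) and TIMP2 (66.7 ± 2.06).

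The ratio of MMP2 to TIMP2 RNA, per length and within each library, was 0.813 ± 0.0202 with the combination, 0.705 ± 0.0123 with irinotecan, 1.31 ± 0.0174 with simvastatin and 1.19 ± 0.0258 with DMSO (SD, n = 4 each). The libraries of the 4 groups did not overlap in this ratio. That of MMP14 to TIMP2 was 0.442 ± 0.0232 with the combination, 0.370 ± 0.0192 with irinotecan, 0.528 ± 0.0135 with simvastatin and 0.450 ± 0.0407 with DMSO, where the combination and DMSO overlapped. Such ratios show unequal change of 2 RNAs and are given without a test, and their size depends on the merged exon lengths.

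**Figure D5:**
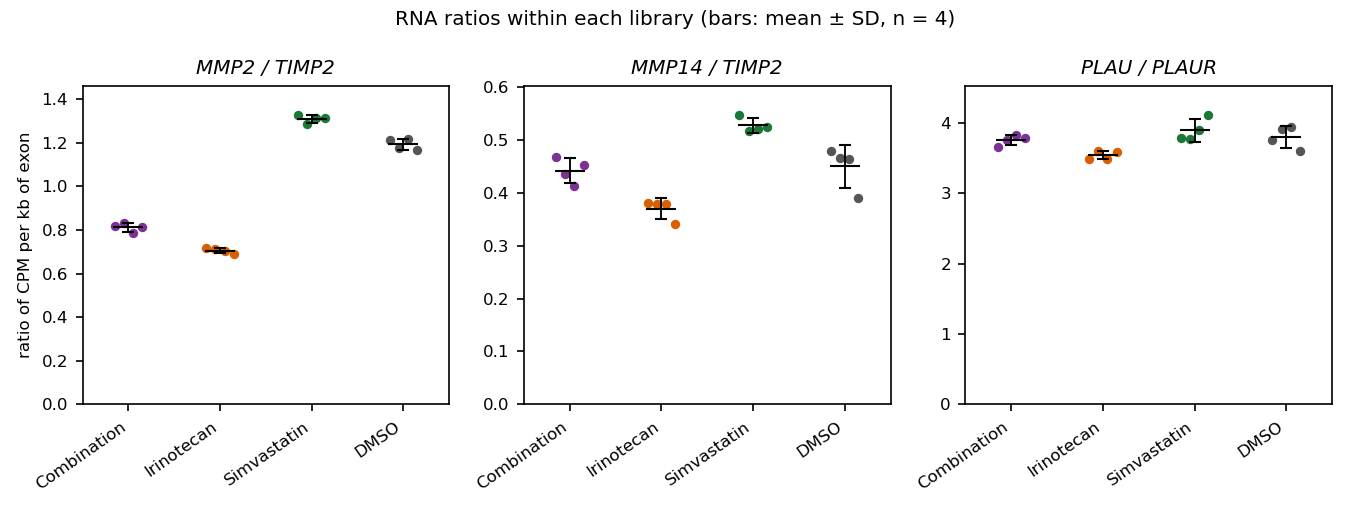
Ratios of RNA levels per kilobase of exon (y axis, from 0) of MMP2 to TIMP2, MMP14 to TIMP2 and PLAU to PLAUR in each library of the 4 groups (x axis). Points are libraries and bars show the mean and SD of 4. MMP2 to TIMP2 is lowest with irinotecan (0.705), and PLAU to PLAUR averages 3.54 there.

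SERPINE2, protease nexin 1, an inhibitor of urokinase, rose in all treatments against DMSO, by 0.55 ± 0.04 with the combination, 0.34 ± 0.04 with irinotecan and 0.22 ± 0.04 with simvastatin (edgeR adjusted p = 1.38e-11, 2.04e-07 and 0.000828).

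Of 11 tested genes in the list of other plasminogen system genes, SERPINE2 included, 5 were higher and 4 lower with the combination against DMSO, 4 higher and 5 lower with irinotecan, and with simvastatin 1 higher. For this list and those below, the shares over all genes tested were 15.1% higher and 13.0% lower with the combination. They were 12.4% and 11.7% with irinotecan and 3.89% and 2.11% with simvastatin. Whether a list departed from these shares was not tested. The median log2 fold change of the list was 0.10 with the combination, -0.07 with irinotecan and 0.01 with simvastatin. ENO1 and ANXA2, which can bind plasminogen at the cell surface, fell with irinotecan by 0.55 ± 0.04 and 0.37 ± 0.04 and with the combination by 0.45 ± 0.04 and 0.36 ± 0.04 (edgeR adjusted p of 2.2e-12, 2.62e-09, 1.68e-10 and 2.88e-09). Of 6 tested partners of the urokinase receptor, 1 was higher (ITGA5) and 2 were lower (ITGA3, ITGB5) with the combination and with irinotecan, while with simvastatin 0 were called by edgeR and 0 by DESeq2, with 1 (ITGA5, higher) at an unadjusted edgeR p under 0.05. These genes encode integrin subunits, which bind matrix proteins. The list's median log2 fold change was 0.01, -0.16 and 0.05 with the combination, irinotecan and simvastatin, in that order.

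Of 19 other metalloproteinase genes, 8 were tested. With the combination 2 were higher and 1 lower, with irinotecan 3 higher and 2 lower, and with simvastatin 0 were called by edgeR, where 1 (MMP15, lower) had an unadjusted p under 0.05 and was called by DESeq2. The median log2 fold change against DMSO was 0.06 with the combination, -0.09 with irinotecan and -0.07 with simvastatin. MMP15, a membrane-bound enzyme like MMP14, was 24.5 ± 0.850 CPM with the combination, 26.1 ± 1.80 CPM with irinotecan, 29.5 ± 2.7 CPM with simvastatin and 33.4 ± 0.999 CPM with DMSO (SD, n = 4 each). It fell by 0.45 ± 0.06 with the combination and by 0.36 ± 0.06 with irinotecan against DMSO (edgeR adjusted p = 1.06e-06 and 3.29e-05). MMP7 and MMP19 were higher with both but stayed below 1 CPM on average in every group. Of 11 tested other inhibitors and activators of metalloproteinases, 1 was higher and 2 lower with the combination against DMSO, 1 was lower with irinotecan and 1 with simvastatin, and the median log2 fold changes were 0.06, 0.04 and 0.04. RECK, a membrane-anchored inhibitor, was lower with each treatment against DMSO, by 0.20 ± 0.05 with the combination, 0.13 ± 0.05 with irinotecan and 0.17 ± 0.05 with simvastatin (edgeR adjusted p = 0.00164, 0.0323 and 0.0242).

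Genes of the ADAM and ADAMTS families were called in both directions, as were genes over the whole table. With the combination, 15.1% of all genes tested were higher and 13.0% lower, with irinotecan 12.4% and 11.7%, and with simvastatin 3.89% and 2.11%. Of 10 tested ADAM genes, 2 were higher and 3 lower with the combination against DMSO, 2 higher and 5 lower with irinotecan, and with simvastatin 1 lower, with medians of -0.02, -0.09 and -0.03 on the log2 scale. ADAM12 fell by 0.47 ± 0.05 with the combination and by 0.54 ± 0.05 with irinotecan (edgeR adjusted p = 5.76e-08 and 8.17e-09). Of 15 tested ADAMTS genes, 4 were higher and 3 lower with the combination, 3 higher and 3 lower with irinotecan, and 1 higher and 3 lower with simvastatin, with medians of 0.21, 0.14 and -0.03. ADAMTS4, which cleaves the proteoglycan aggrecan, was 60.7 ± 3.11 CPM with the combination, 55.4 ± 0.483 CPM with irinotecan, 33.6 ± 0.819 CPM with simvastatin and 33.6 ± 2.99 CPM with DMSO. It rose by 0.85 ± 0.05 with the combination and by 0.72 ± 0.05 with irinotecan (edgeR adjusted p = 1.65e-13 and 6.88e-12), while ADAMTS16 fell by 0.56 ± 0.05 and 0.59 ± 0.05 (edgeR adjusted p = 3.09e-10 and 1.05e-10).

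Lysosomal cathepsins and their cystatin inhibitors gave 3 higher of 11 tested genes with the combination against DMSO, 4 higher with irinotecan and 1 lower with simvastatin, with median log2 fold changes of 0.12, 0.09 and 0.00. CTSV, cathepsin V, reached 44.0 ± 2.87 CPM with the combination, 50.7 ± 2.07 CPM with irinotecan, 19.4 ± 0.788 CPM with simvastatin and 22.4 ± 1.30 CPM with DMSO. Of 4 other tested serine proteases and inhibitors at the cell surface, 1 was higher with the combination and 3 with irinotecan, and the median log2 fold changes were 0.39 with the combination, 0.43 with irinotecan and -0.10 with simvastatin. SPINT1, an inhibitor of membrane serine proteases, was higher with both, by 0.67 ± 0.07 and 0.61 ± 0.07 (edgeR adjusted p = 8.96e-09 and 5.35e-08).

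AP-1 and ETS transcription factors are known to act on the promoters of several of the members. Of 13 tested, 4 were higher and 5 lower with the combination against DMSO, 1 higher and 5 lower with irinotecan, and with simvastatin 2 higher, with median log2 fold changes of 0.00, -0.07 and 0.07. FOSL1 averaged 92.0 ± 2.22 CPM with the combination, 77.8 ± 2.68 CPM with irinotecan, 122 ± 13.2 CPM with simvastatin and 112 ± 8.87 CPM with DMSO (SD, n = 4 each). It fell by 0.28 ± 0.06 with the combination and by 0.52 ± 0.06 with irinotecan (edgeR adjusted p = 0.00185 and 1.94e-06), and gave 0.12 with simvastatin (edgeR adjusted p = 0.341). JUN fell by 0.37 ± 0.04 with the combination and by 0.46 ± 0.04 with irinotecan (edgeR adjusted p = 6.34e-08 and 1.03e-09), and gave -0.00 with simvastatin (adjusted p = 0.992). ATF3 rose by 0.43 ± 0.07 with the combination and by 0.45 ± 0.07 with simvastatin (edgeR adjusted p = 5.35e-05 and 9.95e-05) and gave 0.07 with irinotecan (adjusted p = 0.589).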

How the data were processed

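The deposited table holds raw counts, whole numbers per Ensembl gene for 16 libraries, which the authors had not normalised. The tools were FastQC, STAR 2.7.1 and DESeq2 and the build GRCh38, per the submitters' processing notes. How reads were counted, with which annotation and strand setting, is not given in the sources used here. The re-analysis used edgeR 4.0.16 and limma 3.58.1 under R 4.3.3. filterByExpr (minimum count 10, minimum total 15) kept 16647 genes, libraries were scaled by TMM factors, and a robust quasi-likelihood model with 1 term per group was fitted to all 16 libraries. Of 6 two-sided contrasts, each was adjusted by Benjamini-Hochberg over all genes tested and called under 0.05. The common biological coefficient of variation was 5.25%. Coordinates and exon lengths came from GENCODE 29 on GRCh38, and overlapping exons of a gene were merged for its length.

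The members and gene lists were chosen with earlier results of these data known. The rule for named genes took all 10 members, up to 3 called genes of smallest p per list and comparison with DMSO, and SERPINE2, FOSL1, JUN and ATF3. It also took the 2 genes of highest Pearson correlation with each measured member, among tested genes without clone-like or LINC names. ITGA5 and MMP15 with simvastatin were named after their values were seen. Alternatives were DESeq2 1.42.0, other scalings, no filter, an adjusted p under 0.01, the compared groups alone, the replicate number as a block and leaving out each library. Python 3.11.15 and matplotlib 3.10.9 drew the figures. No library was left out, and no pair of libraries of a group agreed within sampling noise. Not every list gene that the rule takes is described, and some are not reported here. Protein sequences were not used here.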

Additional observations from a re-analysis of the deposited data

Results flagged for a closer look

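For each of the 8 measured members, each group of 4 libraries was checked for a library far from the other 3, which gave 32 checks. Chance alone sets such a library apart in about 1 of 20 groups. MMP2 in combination replicate 1 was 354.8 CPM, and the gap to the nearest of the other combination libraries was 0.870 of the whole range of the group, above the critical value of Dixon's test at the 95% level. All 4 combination libraries stayed between the irinotecan and the DMSO libraries, and with any 1 library left out MMP2 against DMSO was -0.31 to -0.28 on the log2 scale.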

How the results depend on the processing

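The calls rest on changes that are often under 0.3 log2 units, at 24159673 to 32318888 counts per library, and TIMP3 at 5.88 to 12.2 CPM had the widest errors of the tested members. Members called with simvastatin against DMSO were 3, against 1 at an adjusted p under 0.01 (PLAU), and 1 (without simvastatin replicate 1) to 4 (without simvastatin replicate 3) with a library left out. The numbers called in the other comparisons stayed within 1.5 times under the alternatives run. Same-numbered libraries correlated by -0.0646 to 0.200 in their deviations from the group means, over 0.1 in 4 of 18 pairs, and 9 of 12 libraries correlated best with their own number, a hint of pairing from the data and not from the design. The numbers were not taken to pair the libraries, since not every pair was over 0.1. With the replicate number as a block, on the 12 numbered libraries, against DMSO 4 members were called with simvastatin, 7 with irinotecan and 6 with both drugs, 6 with the combination against irinotecan, 8 with the combination against simvastatin and 0 in the interaction. The block called TIMP1 with irinotecan (0.16, edgeR adjusted p = 0.00782) and with the combination (0.15, 0.0142), both against DMSO, and with the combination against simvastatin (0.13, 0.0307). It also called PLAT with simvastatin against DMSO (0.0437) and with the combination against irinotecan (0.0238), and MMP14 with the combination against simvastatin (0.00993). Over all genes, those libraries with and without the block gave 1141 and 513 calls with simvastatin against DMSO, 2016 and 707 with the combination against irinotecan, and 190 and 1 in the interaction.

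Over single members, 376 values under other settings held 332 with the same direction and call, 17 that lost and 16 that gained a call, and 11 of the opposite sign, none of them called in either fit. With a library left out, 768 values held 720, 18, 6 and 24 of these. Opposite signs were: with library sizes alone, PLAT 0.0526 (combination against DMSO). With the replicate block they were MMP2 -0.000295 (simvastatin against DMSO), MMP14 -0.00143 (irinotecan against DMSO), PLAT 0.0125 (combination against DMSO), TIMP1 -0.0129 (combination against irinotecan) and PLAT 0.00311 (interaction). On the 12 numbered libraries without a block, the same 5 were -0.000425, -0.00201, 0.0122, -0.0124 and 0.00380. With a library left out, these 5 ranged from -0.00155 to 0.0360, -0.0282 to 0.0603, -0.0346 to 0.00724, -0.00994 to 0.0951 and -0.0204 to 0.0253, the TIMP1 interaction from -0.0553 to 0.0498 and the TIMP3 interaction from -0.00997 to 0.0880. The causes were not tested.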
